A study of Rattus norvegicus with 109 samples.

Results

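The data described here are those on brainstem sections, cut from the nucleus of the solitary tract (NTS), of spontaneously hypertensive rats (SHR), in which rats that received a Cocktail of microRNA inhibitors were set against pooled controls. The sections were chosen by their labels for strain and treatment, and make up 59 of the 109 sections of the series. The other 50 sections came from Wistar Kyoto rats (WKY), the normotensive strain. Cocktail rats received a 25 uL injection in artificial cerebrospinal fluid that held equal parts of 2 locked nucleic acid inhibitors at 10 uM, anti-miR-376a and anti-miR-135a. Scrambled rats received a locked nucleic acid that matches no known microRNA or mRNA, and Sham rats had cannulas inserted and an empty needle placed. The rats were age-matched, and the labels give no age. By the animal numbers, the Cocktail group held 17 sections of 5 rats, numbered 1694 (4 sections), 1696 (2 sections), 4595 (9 sections), 4598 (1 section) and 4602 (1 section). The controls held 15 Scrambled sections, 14 of rat 4600 and 1 of rat 4604, and 27 Sham sections, all of rat 4596. The control group of 3 rats thus has 2 rats with many sections and 1 rat with 1 section, although the design text of the series speaks of 4 to 5 rats per group.

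The NTS is the first brainstem relay of the nerves that report arterial pressure, and its catecholaminergic, angiotensin and inflammatory signals are known to act on that reflex. A microRNA binds the messenger RNAs that match its seed, and this lowers their translation or stability. A locked nucleic acid inhibitor pairs with the microRNA and keeps it from its targets. RefSeq (GRCr8) holds both arms of each microRNA named in the treatment. The mature sequences of both arms are shown because the Cocktail was made to block these 2 microRNAs, with the seed (bases 2 to 8) in capitals. The labels do not say which arm the inhibitors were designed against.
rno-miR-135a-5p: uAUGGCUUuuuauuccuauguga
rno-miR-135a-3p: uGUAGGGAuggaagccaugaaa
rno-miR-376a-5p: gGUAGAUUcuccuucuaugag
rno-miR-376a-3p: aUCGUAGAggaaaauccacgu
The 4 seeds all differ, so no arm of one microRNA shares its seed with an arm of the other. miR-135a lies on the minus strand of chromosome 7, with the 5p arm at bases 28499221 to 28499243 and the 3p arm at 28499183 to 28499204. miR-376a lies on the plus strand of chromosome 6, with the 5p arm at bases 134559383 to 134559403 and the 3p arm at 134559421 to 134559441.

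Each section was assayed by quantitative PCR for 19 messenger RNAs, of which 18 are described. Levels are minus ΔCt, the median cycle number (Ct) of the section less the Ct of the gene, on a log2 scale. A higher value is more RNA, and 0 is the level of the middle gene among those with a value in the section. The level of a rat is the mean over its sections that hold a value, every rat weighs equally, and n counts rats. The labels place the captured tissue in the NTS by DAPI and NeuN staining. Of the catecholaminergic markers, Th lacked a value in 6 of 59 sections and Dbh in 11, and of microglia and macrophage markers Alox5ap, Ptgs1 and Il1b were measured. No marker of neurons in general, astrocytes, oligodendrocytes, endothelium or blood was among the genes, so the make-up of the sections was not tested. In whole captured tissue, fewer cells of a type and less RNA per cell cannot be told apart.

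The genes came up at earlier cycles in Cocktail rats than in control rats. The median Ct averaged 11.9, 13.8, 14.6, 14.6 and 13.8 in Cocktail rats 1694, 1696, 4595, 4598 and 4602, against 14.8 and 15.9 in Scrambled rats 4600 and 4604 and 15.1 in Sham rat 4596. The rats of both sides did not overlap, with means of 13.7 ± 1.10 (SD, n = 5) and 15.3 ± 0.52 (SD, n = 3), a difference of -1.54 cycles (exact permutation test, two-sided, p = 0.0357). Single sections did overlap, between 11.3 and 17.1 cycles over all 59. The normalisation removes a shift that all genes share, and the gene results are also given below with the median Ct in the fit. The exact p was above 0.05 in 7 of the 8 tests that left out 1 rat, with a difference of -1.76 without rat 4600 (p = 0.143) at the one end and of -1.08 without rat 1694 (p = 0.0286) at the other.

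**Figure D1:**
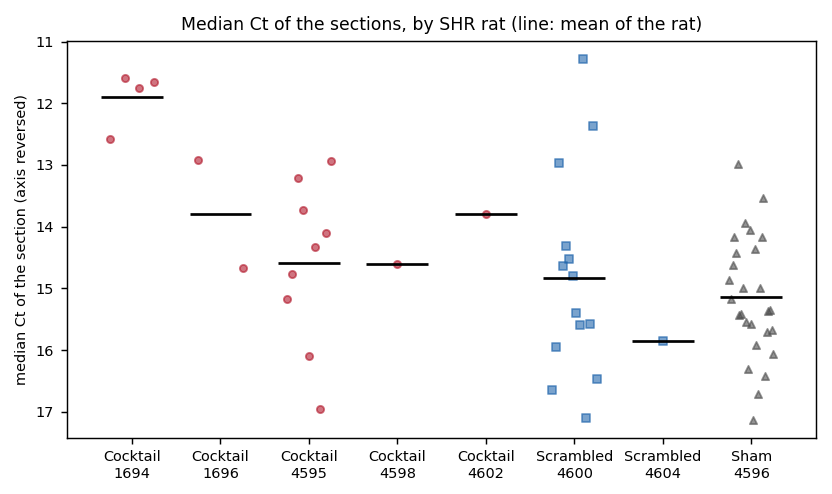
Median Ct of each section (points, reversed axis, so that earlier cycles are higher) for the 8 SHR rats, with the mean of each rat as a line. All 5 Cocktail means, at 14.6 or earlier, lie above the 3 control means, which start at 14.8.

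A set of 8 sections was set apart from the others only after the values were examined. The set was picked by a level of Jun, an immediate-early transcription factor, above -3.6, so its high Jun follows from the choice. Jun lay between -3.31 and 1.92 in these 8 sections and between -8.13 and -3.83 in the other 44 sections with a Jun value. The set comprises 3 of the 4 sections of Cocktail rat 1694, 2 of the 9 of Cocktail rat 4595 and 3 of the 14 of Scrambled rat 4600, and thus 5 of 17 Cocktail and 3 of 42 control sections. In those of rat 1694 Jun lay between -3.31 and -2.68, nearer to the cut than in the other 2 rats. Rgs4 had a median level of 1.72 in these 8 sections and of -0.21 in the other 51, Agtr1a of -4.60 and -6.09, Dbh of -0.64 and -5.25, and Il10 of 0.22 and -2.29. Within rat 1694 Dbh averaged -1.39 in the set and -4.81 in the 1 other section, and within rat 4595 -0.51 and -7.15. Within rat 4600 Dbh was lower in the set, at -8.50 against -7.30. Agtr1a was higher in the set by 3.27, 2.13 and 0.71 in rats 1694, 4595 and 4600. Mean Rgs4 and Il10 were higher in the set in all 3 rats. The median level of Jun was -0.49 in the 8 sections, against -6.66 in the other SHR sections and -1.05 in WKY sections, whose raw Ct was centred on the section median here to match the SHR scale. On that scale the WKY medians of Dbh, Il10, Rgs4 and Agtr1a were -0.62, 0.64, 2.39 and -1.66. By these medians the set lay nearer to WKY than to the other SHR sections in Dbh, Il10 and Rgs4. In Dbh and Rgs4 this did not hold for the sections of rat 4600, where Rgs4 lay between -0.44 and 0.59. In Il10 it did not hold for the lowest section of that rat, at -1.38, and in Jun it was fixed by the cut. In Agtr1a the set lay nearer to the other SHR sections. The median of Ace was 0.62 in the 8 sections, 0.68 in the other SHR sections and 4.29 in WKY. That of Alox5ap was 0.45, 1.13 and -3.01 in the same order, so in these 2 genes the set lay with the other SHR sections. Agtrap had a value in 55 of 59 SHR sections. Those without one were all in the set, 2 of rat 4595 and 2 of rat 4600, and they also lacked Th. The sections of rat 1694 held both genes. No chip or run is given for any section, so a batch could not be examined, and the results on Agtr1a, Rgs4 and Dbh are given with and without this set.

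**Figure D2:**
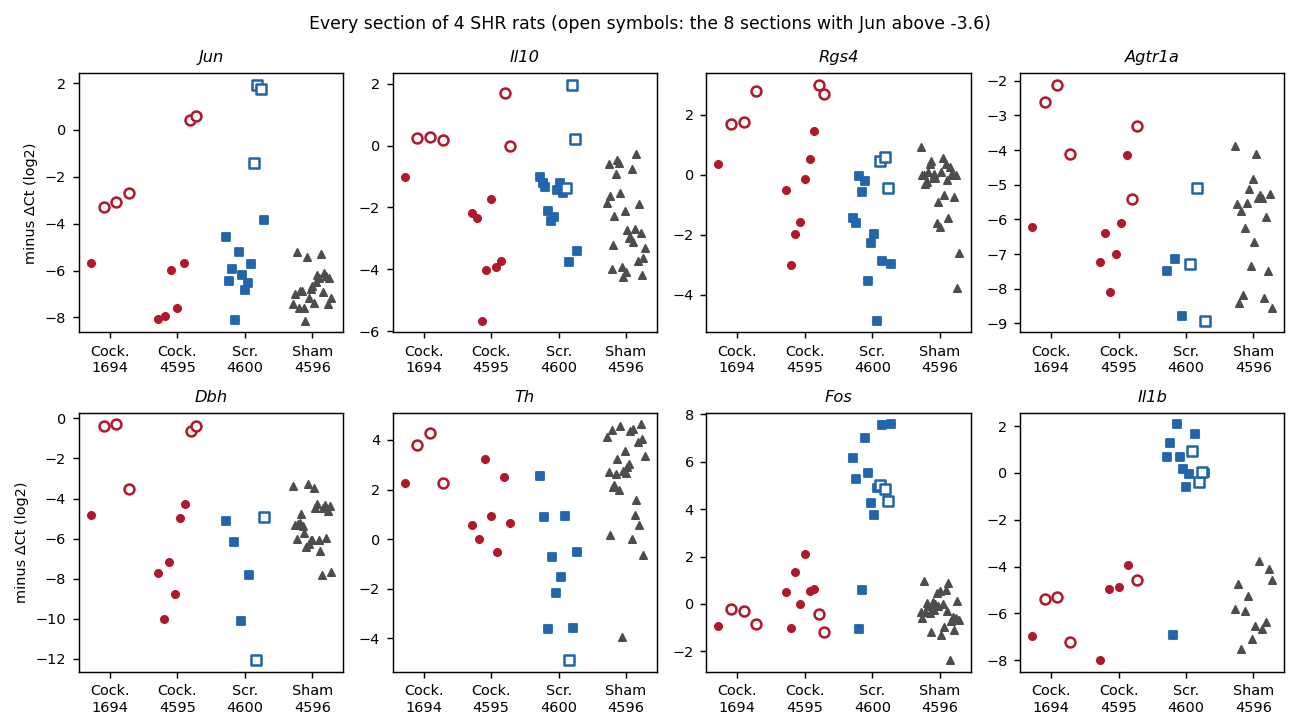
Level (minus ΔCt, log2) in every section with a value for 8 genes in the 4 SHR rats with the most sections (Cock., Cocktail; Scr., Scrambled). Open symbols mark the 8 sections with Jun above -3.6, whose medians of Il10 (0.22) and Rgs4 (1.72) exceed those of the other SHR sections (-2.29 and -0.21) while the ranges overlap, and filled squares at the top of the Fos and Il1b panels belong to Scrambled rat 4600.

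The comparison asked which NTS transcripts differed after inhibition of both microRNAs in hypertensive rats. No transcript differed past the threshold. Agtr1a, the main receptor of angiotensin II, had a mean level 2.15 higher on the log2 scale in Cocktail rats, a 4.43-fold difference, and was the only gene with all Cocktail rats above all control rats. Rgs4, Dbh and Ptgs2 followed in order of p. Limma called 0 of 19 genes at an adjusted p under 0.05 (0%), and 3 genes (Agtr1a, Rgs4 and Dbh) had an unadjusted p under 0.05. The exact permutation test of rats also called 0 genes, with 2 (Agtr1a and Rgs4) under 0.05 before adjustment. The median difference over all 19 genes was 0.19. Without Cocktail rat 4595, limma called 2 genes (Agtr1a and Dbh), and on raw Ct, where the median difference over all genes was 1.71, it called 3 (Agtr1a, Dbh and Rgs4).

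**Figure D3:**
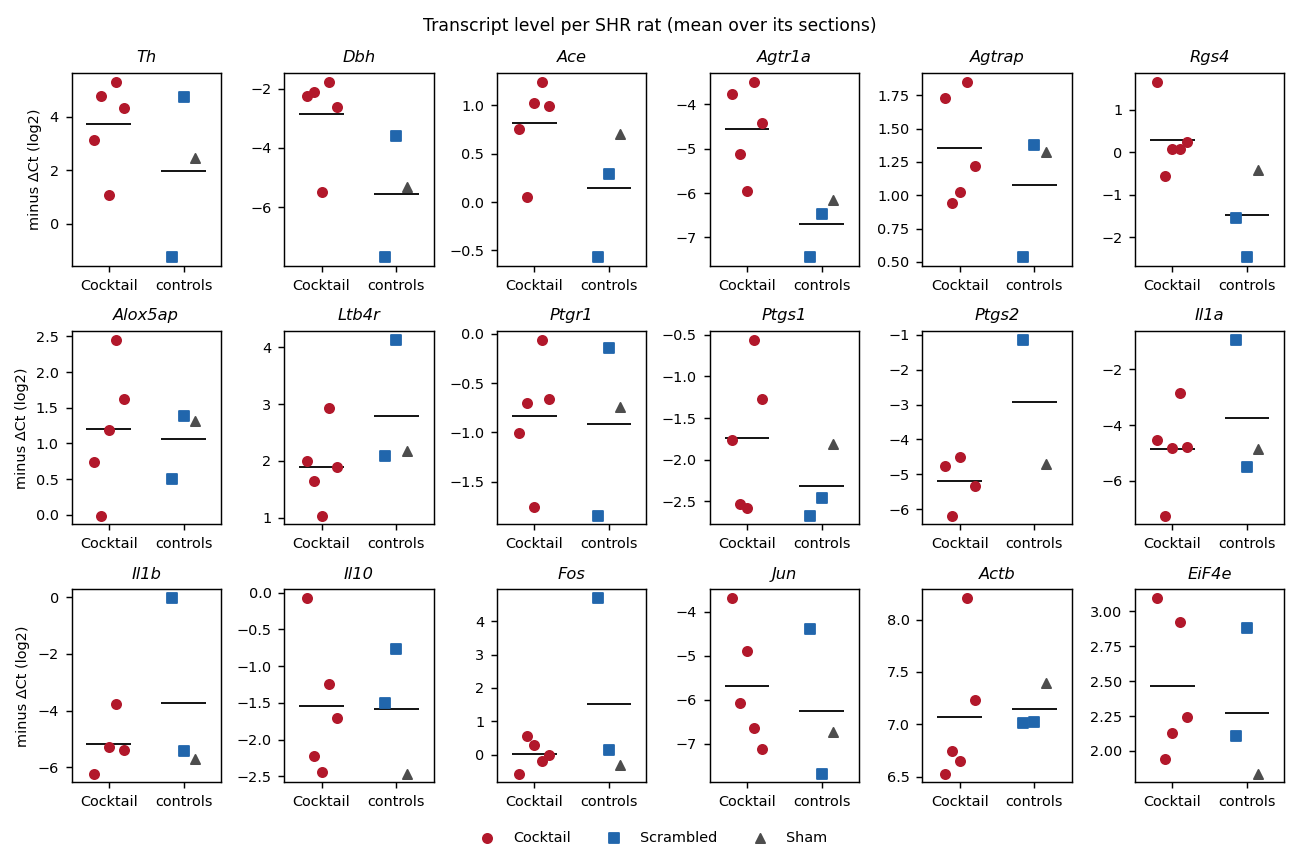
Level of 18 genes (minus ΔCt, log2) in each SHR rat, as the mean over its sections, with 5 Cocktail rats (circles) at the left of each panel and the controls (2 Scrambled rats as squares, 1 Sham rat as a triangle) at the right. Lines are group means, and Agtr1a is the gene whose groups do not overlap.

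Among the catecholamine genes, Dbh encodes dopamine beta-hydroxylase, which makes noradrenaline from dopamine. Its level was -2.25, -2.13, -5.49, -1.78 and -2.63 in Cocktail rats 1694, 1696, 4595, 4598 and 4602, against -7.70 and -3.61 in Scrambled rats 4600 and 4604 and -5.33 in Sham rat 4596. In 4 of 5 Cocktail rats it lay above all controls, and in rat 4595 it lay between Scrambled rat 4600 and Sham rat 4596. The difference of 2.69 (standard error 1.06, 95% confidence interval 0.33 to 5.06) did not pass (limma, p = 0.0293, adjusted p = 0.185). It was 3.35 without rat 4595, where it passed (adjusted p = 0.0439), 1.62 without rat 4600 (adjusted p = 0.405), and 1.72 without the 8 sections (adjusted p = 0.593). Without these sections Dbh was at -4.81 in rat 1694 and -7.15 in rat 4595. Both then lay among the controls, at -7.30, -3.61 and -5.33 in rats 4600, 4604 and 4596. On raw Ct the difference was 3.96 and passed (adjusted p = 0.0297). Dbh was measured in 6 of the 14 sections of rat 4600, so the value of that rat leaves out more than it holds. Th encodes tyrosine hydroxylase, the first enzyme of the pathway. It lay between 1.06 (rat 4595) and 5.31 (rat 4598) in Cocktail rats, with a median of 4.33, against -1.27 in Scrambled rat 4600, 4.75 in Scrambled rat 4604 and 2.46 in Sham rat 4596. The Th difference was 1.74 (95% confidence interval -1.23 to 4.71) with all rats and 0.12 without rat 4600. Both enzymes were thus lowest in rat 4600, and of the Cocktail rats both were lowest in rat 4595.

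Of the angiotensin system, Agtr1a encodes the type 1 receptor through which angiotensin II raises sympathetic drive. Its level was -3.77, -5.11, -5.96, -3.50 and -4.41 in Cocktail rats 1694, 1696, 4595, 4598 and 4602, against -7.45 and -6.48 in Scrambled rats 4600 and 4604 and -6.16 in Sham rat 4596. All Cocktail rats were above all controls, with the smallest gap between Cocktail rat 4595 and the Sham rat. Such a separation was met by 1 of 19 genes in this direction (5.26%). The difference of 2.15 (standard error 0.681, 95% confidence interval 0.63 to 3.66) did not pass after adjustment (limma, p = 0.0101, adjusted p = 0.185; exact permutation test, two-sided, p = 0.0357, adjusted p = 0.339). It was 2.41 against the Scrambled rats alone and 1.61 against the Sham rat alone. It passed without rat 4595 (2.50, limma, adjusted p = 0.0439), on raw Ct (3.18, adjusted p = 0.0471) and with the spread shared with WKY rats (adjusted p = 0.0433). Without the 8 sections the level was -6.22, -5.11, -6.49, -3.50 and -4.41 in the same Cocktail rats, against -7.80 and -6.48 in the Scrambled rats and -6.16 in the Sham rat. The groups then overlapped, with a difference of 1.67 (limma, adjusted p = 0.360; exact permutation p = 0.143). The value of rat 1694 then rests on 1 section, and that of rat 4595, from 6 sections, also lay below the Sham rat. With the median Ct as a covariate the difference was 1.76 (limma, adjusted p = 0.754), and with sections between 13 and 16 cycles alone, which leaves out rat 1694, it was 1.61 (adjusted p = 0.596).

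Agtr1a was also missing from many control sections. It was measured in 8 of 9 sections of Cocktail rat 4595 and in every section of the other Cocktail rats, against 6 of 14 sections of Scrambled rat 4600, the only section of rat 4604 and 20 of 27 sections of the Sham rat. The mean share of sections with a value was 97.8% in Cocktail rats and 72.3% in controls, a difference that did not pass (exact permutation p = 0.107, adjusted p = 0.786 over the 8 genes with over 10% of values missing). The sections without Agtr1a had later median cycles: in rat 4600 the median Ct averaged 15.8 in the 8 sections without it and 13.5 in the 6 with it, and in the Sham rat 15.8 in 7 and 14.9 in 20. With missing values set at the lowest value of the gene the difference was 2.60 (adjusted p = 0.138), and set at cycle 30 it was 3.92 (adjusted p = 0.267).

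Ace, the enzyme that forms angiotensin II, lay between 0.05 (rat 1696) and 1.24 (rat 4598) in Cocktail rats, against -0.57 and 0.29 in Scrambled rats 4600 and 4604 and 0.71 in the Sham rat. In 4 of 5 Cocktail rats Ace was above all controls, and the difference was 0.67 (95% confidence interval -0.53 to 1.87, limma, adjusted p = 0.576), or 0.31 without rat 4600 and 0.10 against the Sham rat alone. Agtrap encodes a protein that binds the type 1 receptor and promotes its internalisation. It lay between 0.94 and 1.85 in Cocktail rats, against 0.53, 1.37 and 1.32 in rats 4600, 4604 and 4596, a difference of 0.28 (95% confidence interval -0.86 to 1.41), or 0.0042 without rat 4600. Of these 3 angiotensin genes, 0 were called and 3 had a higher mean in Cocktail rats, with a median difference of 0.67, against 0.19 over all 19 genes. Within a section, the receptor less its binding protein does not depend on the normaliser, and this log ratio was -5.49, -6.05, -7.62, -5.34 and -5.63 in Cocktail rats 1694, 1696, 4595, 4598 and 4602. It was -8.47 and -7.85 in the Scrambled rats and -7.60 in the Sham rat. Cocktail rat 4595 matched the Sham rat here and the other 4 lay above all controls. The ratio of rat 4595 leaves out its 2 sections of high Jun, which lack Agtrap, while that of rat 1694 holds its 3. The difference of 1.95 did not pass (exact permutation p = 0.0536, adjusted p = 0.286 over 12 ratios).

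Rgs4 encodes a regulator that shortens signalling by G protein-coupled receptors. Its level was 1.65, -0.56, 0.06, 0.06 and 0.24 in Cocktail rats 1694, 1696, 4595, 4598 and 4602, against -1.55 and -2.48 in Scrambled rats 4600 and 4604 and -0.42 in the Sham rat. In 4 of 5 Cocktail rats it was above all controls, and rat 1696 lay just below the Sham rat. The difference was 1.77 (standard error 0.676, 95% confidence interval 0.27 to 3.28), or 3.42-fold, and did not pass (limma, p = 0.0252, adjusted p = 0.185; exact permutation test, two-sided, p = 0.0357). It was 2.31 against the Scrambled rats alone and 0.71 against the Sham rat alone, so the Sham rat was nearer to the Cocktail rats. Without the 8 sections it was 1.51 (adjusted p = 0.360), and with the median Ct as a covariate 0.74 (adjusted p = 0.754). On raw Ct it was 3.31 and passed (adjusted p = 0.0471). The log ratio of Rgs4 over Agtr1a, taken within sections, differed by -0.93 (95% confidence interval -2.88 to 1.02).

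**Figure D4:**
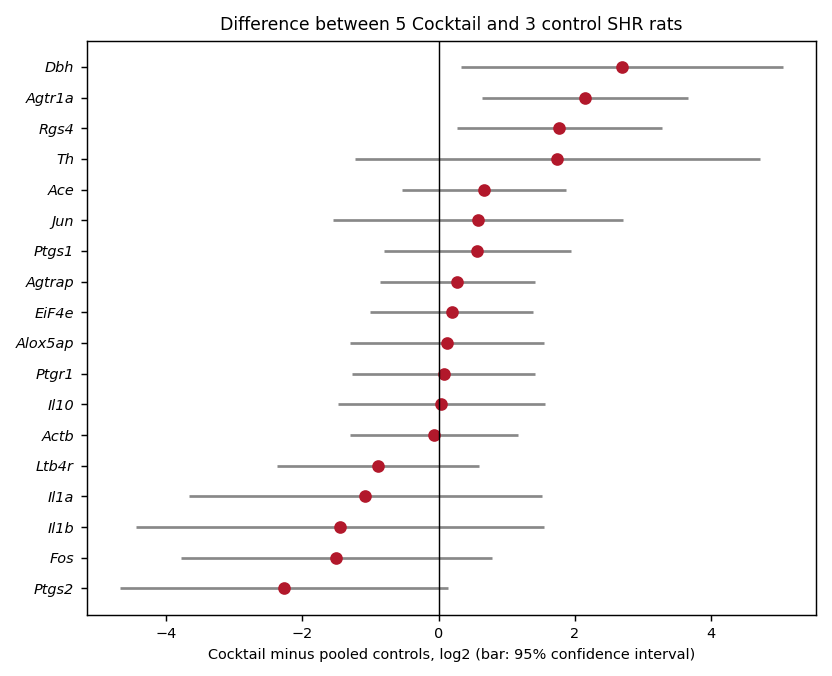
Difference in mean level, Cocktail minus pooled controls (points, log2), with its 95% confidence interval from limma (bars), for 18 genes in 5 Cocktail and 3 control SHR rats. Intervals of Dbh, Agtr1a and Rgs4 lie above 0 before adjustment over genes, and none passed after it.

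Of the leukotriene genes, Alox5ap and Ptgr1 showed small differences and Ltb4r a larger one. Alox5ap, which presents arachidonic acid to 5-lipoxygenase, lay between -0.01 (rat 1696) and 2.45 (rat 4598) in Cocktail rats, with a median of 1.18, against 0.50, 1.38 and 1.32 in rats 4600, 4604 and 4596. Its difference was 0.13 (95% confidence interval -1.29 to 1.55). Ltb4r, a leukotriene B4 receptor, lay between 1.04 and 2.93 in Cocktail rats, against 2.08, 4.12 and 2.17 in the same controls. In 4 of 5 Cocktail rats Ltb4r was below all controls, and the difference was -0.89 (95% confidence interval -2.37 to 0.59), or -0.23 without rat 4604. Ptgr1, an enzyme that inactivates leukotriene B4 and prostaglandins, differed by 0.07 (95% confidence interval -1.26 to 1.41). Of the 3 genes 0 were called, with a median difference of 0.07.

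Of the cyclooxygenases of prostaglandin synthesis, Ptgs2 is the inducible and Ptgs1 the constitutive enzyme. Ptgs2 was at -4.75, -6.18, -4.49 and -5.33 in Cocktail rats 1694, 1696, 4595 and 4602, against -1.15 in Scrambled rat 4600 and -4.70 in the Sham rat. It had no value in the only section of Cocktail rat 4598 or of Scrambled rat 4604, so the fit rests on 4 and 2 rats. The Sham rat lay among the Cocktail rats, and rat 4600 lay far above all others. The difference was -2.26 (standard error 1.05, 95% confidence interval -4.67 to 0.14, limma, p = 0.0620, adjusted p = 0.294). Without rat 4600 it was -0.49, and against the Scrambled rats alone, which leaves rat 4600 as the only one with a value, -4.04 (limma, adjusted p = 0.0828). With missing values set at the lowest value of the gene it was -1.10, and set at cycle 30 it was -0.039 (adjusted p = 0.991). Ptgs1 lay between -2.58 and -0.56 in Cocktail rats, against -2.67, -2.46 and -1.82 in rats 4600, 4604 and 4596, a difference of 0.57 (95% confidence interval -0.80 to 1.94). Neither gene was called.

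Rat 4600 also stood apart in Il1a and Il1b. Il1a, a pro-inflammatory cytokine released by injured cells, lay between -7.24 and -2.84 in Cocktail rats, with a median of -4.77, against -0.96 in Scrambled rat 4600, -5.48 in Scrambled rat 4604 and -4.85 in the Sham rat. Il1b, its secreted relative, lay between -6.22 and -3.78 in the 4 Cocktail rats with a value, against -0.04, -5.42 and -5.70 in the same controls. The differences were -1.08 for Il1a (95% confidence interval -3.67 to 1.51) and -1.44 for Il1b (-4.43 to 1.54), and without rat 4600 they were 0.32 and 0.40. Il10, an anti-inflammatory cytokine, differed by 0.04 (95% confidence interval -1.48 to 1.56), with Cocktail rats between -2.43 and -0.07 and controls between -2.46 and -0.76. Of the 3 interleukins 0 were called.

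Fos and Jun encode partners of the AP-1 transcription factor that neurons make after strong stimulation. Fos was at -0.57, 0.56, 0.28, -0.20 and 0 in Cocktail rats 1694, 1696, 4595, 4598 and 4602, against 4.69 and 0.15 in Scrambled rats 4600 and 4604 and -0.30 in the Sham rat. The Cocktail rats lay within a narrow band, rat 4604 and the Sham rat lay in or beside it, and rat 4600 stood alone. The difference of -1.50 (standard error 1.02, 95% confidence interval -3.78 to 0.78) did not pass (limma, p = 0.173, adjusted p = 0.576) and was 0.09 without rat 4600. Jun lay between -7.13 (rat 4602) and -3.69 (rat 1694) in Cocktail rats, against -4.40, -7.68 and -6.72 in rats 4600, 4604 and 4596. Its difference was 0.58 (95% confidence interval -1.55 to 2.71), and 0.27 without the 8 sections, which were chosen on Jun itself. It was 1.52 without rat 4600, -0.12 without rat 4604 and -0.99 with the median Ct as a covariate, so its sign was not stable.

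The common reference transcripts differed little. Actb, which encodes beta-actin, lay between 6.53 and 8.20 in Cocktail rats and between 7.01 and 7.39 in controls. Its difference was -0.07 (95% confidence interval -1.30 to 1.16). EiF4e, the cap-binding translation factor, differed by 0.19 (95% confidence interval -1.004 to 1.39). Relative to Actb in place of the median, the differences were 2.09 for Agtr1a (limma, adjusted p = 0.123), 1.84 for Rgs4 (0.231) and 2.76 for Dbh (0.175).

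Scrambled rat 4600 was 1 of 3 rats behind nearly every control mean above. In 12 of its 14 sections, picked by Fos above 2, Fos lay between 3.75 and 7.58, while the highest of the 45 sections of the other 7 rats was 2.11. In these 12 sections Il1b lay between -0.62 and 2.08, against at most -3.78 in the other rats, and Il1a between -1.45 and 1.09, against at most -1.53. Ptgs2 lay between -2.39 and 0.67 there, a range that touches that of the other rats, whose highest section was at -2.24. The other 2 sections of the rat were unlike these, with Fos at -1.05 and 0.58 and Il1a at -5.92 and -4.60. Over the sections of this rat Fos ran with Il1a (r = 0.88 over 14 sections) and with Il1b (r = 0.84 over 13), and over the 12 sections of high Fos alone r was 0.41 with Il1a and 0.62 with Il1b, so the larger values rest in part on the other 2 sections. Over the sections of the Sham rat r was -0.06 with Il1a (26 sections) and 0.12 with Il1b (12 sections). These correlations describe sections that share a rat and a normaliser. Th had a median of -1.86 in the 8 of those 12 sections with a value, against 2.74 in the sections of the other rats.

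By the distance between mean levels, the Sham rat lay between 3.12 and 6.37 from each Cocktail rat, 5.05 from Scrambled rat 4604 and 8.65 from Scrambled rat 4600. It was within the range of the Cocktail rats for 15 of the 18 genes described, while rat 4604 was for 13 and rat 4600 for 6. Rat 4600 was the highest of the 8 rats for 4 genes (Fos, Il1a, Il1b and Ptgs2) and the lowest for 7 (Ace, Agtr1a, Agtrap, Dbh, Ptgr1, Ptgs1 and Th). Over the 17 genes that no rat lacked, the mean profiles of Cocktail and control rats lay 4.85 apart, against a median of 3.51 over the 56 ways to label the rats (exact permutation test, one-sided, p = 0.107). The nearest rat to Cocktail rat 4595 was the Sham rat, at a distance of 3.12, and the nearest to each of the other 4 Cocktail rats was a Cocktail rat. Each control also had a Cocktail rat as its nearest, 4595 for rat 4600 and the Sham rat, and 1696 for rat 4604. Distances between rats had a median of 5.74 within Cocktail (10 pairs), 8.65 within controls (3 pairs) and 6.46 between them (15 pairs).

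Of the 12 log ratios of gene pairs within sections, 0 were called by the exact permutation test and 0 had a p under 0.05 in it. A single ratio at the lowest p of that test would not pass adjustment. The ratios with Ptgs2, which rest on 4 and 2 rats, could not reach 0.05 in it. Limma on the same ratios called 0, with 2 under 0.05 before adjustment. These were Agtr1a minus Agtrap, given above, and Ace minus Agtr1a, which averaged 5.39 ± 1.02 in Cocktail rats (SD, n = 5) and 7.14 ± 0.39 in controls (SD, n = 3), a difference of -1.76 (95% confidence interval -3.30 to -0.21, limma, adjusted p = 0.177). Fos minus Jun differed by -1.98 (95% confidence interval -4.09 to 0.12). Th minus Dbh, the balance of the early and the late enzyme of noradrenaline synthesis, differed by -0.82 (95% confidence interval -2.49 to 0.85).

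Whether the response to Cocktail differed between the strains was tested as the SHR difference minus the WKY difference, with 4 Cocktail and 8 control profiles in WKY. These 12 profiles come from 11 animal numbers, because 4614 is given for a Cocktail and a Scrambled profile, and they entered as independent. Limma called 0 of 19 genes (0%), with 0 under 0.05 before adjustment, and 0 genes also without both profiles of 4614. Agtr1a averaged -1.46 ± 0.51 in WKY Cocktail (SD, n = 4) and -2.38 ± 0.85 in WKY controls (SD, n = 8), so its WKY difference was 0.92 and that of SHR 2.15. The SHR response minus the WKY response was 1.23, with a 95% confidence interval from -0.43 to 2.88. For Dbh it was 1.52 (-1.45 to 4.48) and for Rgs4 1.08 (-1.02 to 3.17), with differences of 1.18 and 0.70 in WKY. Il1b had the smallest p, with -3.45 (95% confidence interval -7.51 to 0.61, limma, adjusted p = 0.718), from -1.44 in SHR and 2.01 in WKY.

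The spread over the sections of a rat was compared with that over rats. The standard deviation over sections had a median over the genes of 1.38 in Cocktail rat 4595, 1.47 in Scrambled rat 4600 and 0.97 in the Sham rat, and that over rats was 0.84 in the 5 Cocktail rats and 0.95 in the 3 controls. In Fos, Il1a, Il1b, Ptgs2, Ltb4r and Th the control rats differed more than the sections of any of these rats did, with a Fos standard deviation of 2.76 over control rats and of 2.42 over the sections of rat 4600. Agtrap had the lowest spread over the Cocktail rats (0.41) and Th the highest (1.69). The means of rats 4598, 4602 and 4604 rest on 1 section each and weigh as much as those of 9 to 27 sections. With rats of at least 2 sections only, the differences were 1.86 for Agtr1a, 1.37 for Rgs4 and 3.23 for Dbh (limma, adjusted p = 0.514 each). In 2 pairs of sections of 1 rat, the levels of all shared genes nearly coincided, with a root mean square difference of 0.12 over 16 genes in the Sham rat and 0.19 over 18 in Cocktail rat 1694, against 0.39 for the next closest pair. Counting each pair as 1 section gave an Agtr1a difference of 2.05 (adjusted p = 0.201).

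Over the sections of a rat, EiF4e and Il10 ran together. Their correlation was 0.94 in Cocktail rat 4595 (9 sections), 0.94 in Scrambled rat 4600 (14 sections) and 0.94 in the Sham rat (27 sections), on the normalised scale. The log ratio of EiF4e over Il10 averaged 4.56 ± 1.05 in Cocktail rat 4595, 3.61 ± 0.59 in rat 4600 and 4.30 ± 0.52 in the Sham rat (SD over sections). Actb and Alox5ap were the next pair, with correlations between 0.80 and 0.90 in the same 3 rats. Of 36 pairs of genes measured in every section, 4 had a correlation over 0.5 in all 3 rats. These points share the rat, the RNA input and the normaliser, and no test was made.

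**Figure D5:**
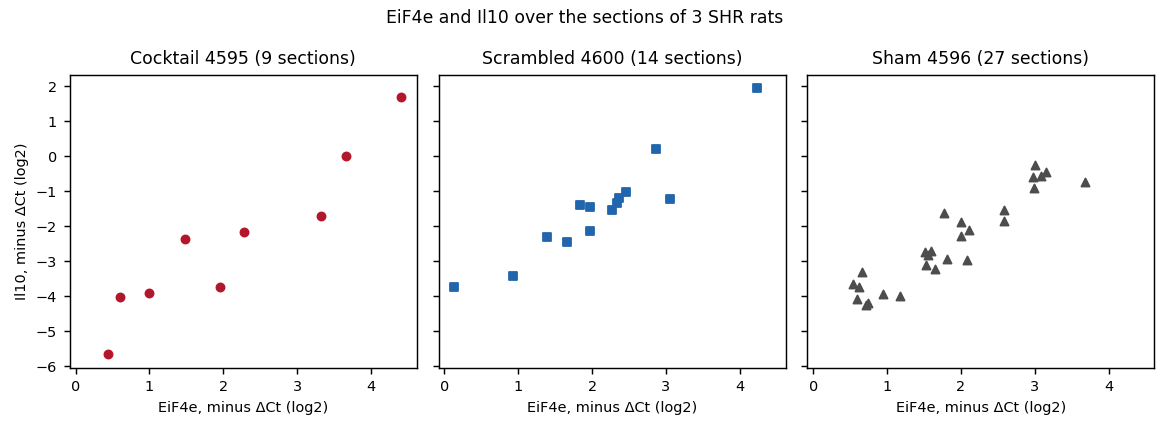
Level of Il10 against that of EiF4e (minus ΔCt, log2), 1 point per section, in Cocktail rat 4595, Scrambled rat 4600 and Sham rat 4596. Sections with more EiF4e had more Il10 in each rat, with a correlation of 0.94.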

How the data were processed

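Per the labels' protocols, RNA of laser-captured NTS sections was measured on BioMark microfluidic arrays of 2 formats with EvaGreen over 30 cycles, and Ct was called by Fluidigm software. The deposited raw values are Ct, treated as a score. The authors deposited normalised values on a log2 scale, which equal the median Ct of the section less the Ct of the gene in 59 of 59 SHR sections. Both tables lack the same 106 of 1121 SHR values, and undetected transcripts and failed reactions cannot be told apart. WKY sections had another constant. They entered the test between strains, 1 alternative fit of all 20 profiles, and medians set beside 8 SHR sections, for which raw Ct was centred on the section median.

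Section values were averaged per rat and fitted with limma 3.58.1 (R 4.3.3), two-sided, with Benjamini-Hochberg adjustment over 19 genes and a threshold of 0.05. Exact permutation tests used all 56 labellings of the 8 rats where each rat had a value, and can then go no lower than p = 0.0179. With rats lacking a value, Il1b had 35 labellings and Ptgs2 15, so their lowest p is higher, and for Ptgs2 above 0.05. After adjustment over genes or ratios, a single one at the lowest p would not pass. The scripts were tested on simulated data. Statistics in full are given for the genes that pass, or else the 5 of smallest p. All 19 transcript accessions matched RefSeq (GRCr8), and 1 of the 19 genes is in every fit but is not reported here. The members, lists and alternatives were chosen with earlier results of these data known. Alternatives covered the control group, missing values, normalisation, summary, filter and single rats. With no depth but Ct, precision is limited by the number of rats and sections.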

Additional observations from a re-analysis of the deposited data

Results flagged for a closer look

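Among the 18 genes examined in the 5 Cocktail rats, 1 had a rat far from the others. Dbh was at -5.49 in Cocktail rat 4595, and the other Cocktail rats lay between -2.63 and -1.78, so that the gap took up most of the range of the group. Chance alone flags about 1 in 20 such groups. In that rat the 2 sections of high Jun had Dbh at -0.64 and -0.39, and the 6 others with a value lay between -10.0 and -4.30. Without rat 4595 the Dbh difference between Cocktail and control rats was 3.35 on the log2 scale (limma, adjusted p = 0.0439). The cause was not tested.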

How the results depend on the processing

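The count of genes called was 0 in 25 of 28 alternatives. It was 1 (Agtr1a, adjusted p = 0.0433) with all 20 profiles of both strains in 1 fit, which borrows the spread of WKY rats, and 3 (Agtr1a, Dbh and Rgs4) on raw Ct, where the median over all genes moved by 1.51. Leaving out each rat gave counts between 0 and 2, with 2 (Agtr1a and Dbh) without Cocktail rat 4595. The Agtr1a difference ranged from 1.61 to 3.92. Agtr1a, Rgs4, Dbh, Th and Ace had a higher mean in Cocktail rats in all 26 of their alternatives, and Ptgs2 a lower mean in all 26. The Ptgs2 difference was as small as -0.039, with missing values at cycle 30. These alternatives reuse the same rats. Fos turned to 0.31 against the Sham rat alone and 0.0396 on raw Ct, and lay between -2.41 without the Sham rat and 0.0892 without rat 4600 when 1 rat was left out. The test between strains called 0 genes in its 12 alternatives, and the ratios 0 in 13. The profile distance lay between 3.72 and 6.36 when 1 rat was left out, with exact permutation p between 0.0286 and 0.333. The difference in median Ct lay between -1.76 and -1.08, with exact permutation p between 0.0286 and 0.143. With 4 rats against 3, or 5 against 2, that test has few labellings. The alternatives on the median Ct, the 8 sections and the closest pairs were chosen after seeing the data. No paired analysis was possible because the SHR groups share no rat number, the WKY groups share only 4614, and section numbers only name sections.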

Other observations

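The latest cycle at which a gene was measured differed between genes and lay before the last cycle run, 30. The latest Ct in any SHR section was 19.95 for Ptgs2, with 17 of its 37 values within 1 cycle of it, and 17.9 for Ptgr1, with 12 of 51. It was 21.7 for Il1b, 23.6 for Jun, 23.9 for Agtr1a and 24.8 for Dbh, and the last 2 had 5 and 2 values within 1 cycle of the latest. The level of Ptgs2 ran with the median Ct over sections of the Sham rat (r = 0.86 over 12 sections). In Cocktail rat 4595 r was 0.50 (6 sections), and in Scrambled rat 4600 it was -0.03 (13 sections). The cause was not tested.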
